A study of Homo sapiens
Mus musculus with 17 samples.

Results

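Cell division genes were followed in the mouse reads of human bladder cancer xenografts, as 34 mouse genes out of the 23337 genes of the mouse table. They were chosen by name, with earlier results of these data known. The shares of all genes given beside them are therefore descriptive and no independent test. VM-CUB-1, an established line of human bladder cancer cells, was xenografted into nude mice (Hsd:Athymic Nude-Foxn1nu), which lack a working thymus. Mice received alpelisib at 25 mg/kg with nintedanib at 40 mg/kg (combination, 4 libraries), alpelisib alone at 25 mg/kg (4 libraries), nintedanib alone at 40 mg/kg (5 libraries) or vehicle, 0.5% methylcellulose with 0.1% Tween80 (4 libraries), for 7 days. All groups thus share 1 cell line and 1 host strain, and the description of the series calls the xenografted cells nintedanib-resistant. The sample titles name 3 nintedanib libraries responders and 2 non-responders, whereas that description counts 2 and 3. The titles were followed. Each mouse gene was set against the human row of the same name in capitals, with KIF4A for Kif4, so that all 34 had a human counterpart.

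A dividing cell switches on its genes in waves. Genes of DNA replication and nucleotide supply are induced as cells enter S phase, and a later wave under the factors FOXM1 and B-MYB (Mybl2) supplies the cyclins, kinases, spindle motors and kinetochore proteins of mitosis. Both waves are low in resting tissue, so their RNA is widely read as a measure of the number of cycling cells. In a xenograft the human reads stem mainly from tumour cells and the mouse reads mainly from host stroma and vessels. These genes differ in how well they are conserved between the species, and a read of a conserved stretch can match both genomes. Nintedanib inhibits the receptor tyrosine kinases of the VEGF, FGF and PDGF families, through which endothelial cells, pericytes and fibroblasts are stimulated to divide. Alpelisib inhibits the alpha isoform of PI3K.

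Of the 34 genes, 27 act in mitosis, and the other 7 (Mcm2, Mcm3, Mcm5, Mcm6, Pcna, Rrm2 and Tyms) serve DNA replication or nucleotide synthesis. A name that speaks of mitosis therefore covers only the 27, and the 7 are described apart. Testing required an average level of 10 normalized counts or more across all 17 libraries, which 33 of the 34 reached. Ttk, the checkpoint kinase Mps1, averaged 8.89 and was not tested.

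The mouse table held 2271764 to 7438823 reads per library (median 5084126) whereas 7429753 to 25654879 human reads were counted (median 20312801). In 4 libraries (vehicle 3, combination 4, alpelisib 3 and combination 1) the rows Rn45s and Lars2 took 72.9%, 60.1%, 44.1% and 42.1% of the mouse reads. Both rows were counted together as ribosomal reads, although Lars2 is a protein-coding gene, and that reading was not checked. Calls and the values of Tyms are also given without these libraries. A gene was called where limma-trend on log2(normalized count + 1) gave an adjusted p under 0.05 (Benjamini-Hochberg, all genes tested), and changes below are log2 fold changes on that scale, with their standard error (SE). The labels do not say whether the libraries of a group came from separate animals, so the p-values reflect only how far libraries spread within the fitted groups. Nintedanib responders and non-responders, as the titles name them, were fitted as separate groups and then averaged. The SE and p-values for nintedanib therefore leave out the difference between responders and non-responders. In bulk tissue, fewer cells of a type and less RNA per cell cannot be told apart.

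The mouse reads of the members were few beside the human ones. Over the 17 libraries pooled, a member had a median of 6.22 mouse reads per 100 human reads of its counterpart. The lowest was Ccnb1, the cyclin that drives entry into mitosis, at 1.51, and the highest was Tyms, thymidylate synthase, at 41.5. Kif20a stood at 3.75, Prc1 at 2.95, Kif23 at 6.56, Mki67 at 7.67, Mcm2 at 6.84 and Cdk1 at 12.7. All 34 had fewer mouse than human reads in the pool, and 33 of them did so in every library. The exception was Tyms, which had more human reads in 15 of 17 libraries and 127 and 128 mouse reads per 100 human in combination libraries 1 and 4. For all 9518 gene pairs with enough reads in both tables the median was 16.5, and 33 of the 34 members lay under it.

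By the medians of single genes, the members lay between the tumour and the host markers. Genes of tumour epithelium had a median of 0.757 mouse reads per 100 human reads, from 0.0351 for the keratin Krt18 to 65.3 for Krt6b. Of these 33 genes 18 lay under the lowest member, 14 within the members' range and 1 above it. The 20 endothelial genes had a median of 2140, and every one lay above the highest member. The adhesion molecules of endothelium Pecam1 and Cdh5 stood at 7391 and 171275. Fibroblast and matrix genes had a median of 2391, macrophage genes 3487 and lymphoid genes 915. Within the cell cycle, 50 other mitotic genes had a median of 4.46 and 41 other replication genes 7.43. On summed reads the order of members and tumour genes was the other one. The members together had 5.07, 5.44, 6.81 and 7.29 mouse reads per 100 human reads in combination, alpelisib, nintedanib and vehicle libraries (means over libraries), and the tumour epithelium genes together 11.5, 10.8, 10.6 and 9.31. How many of a member's mouse reads were read from human RNA was not measured.

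**Figure D1:**
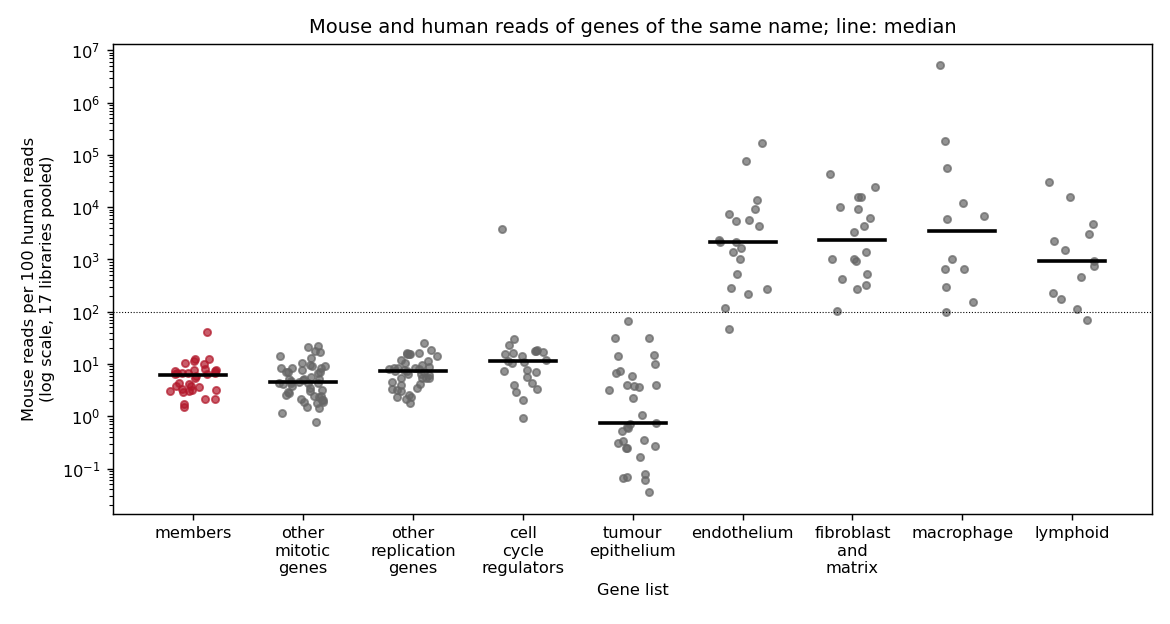
Mouse reads per 100 human reads of genes of the same name, pooled over the 17 libraries, on a log scale; each point is 1 gene, the thick lines are list medians and the dotted line marks equal numbers. The members (red, median 6.22) lie above most tumour epithelium genes (median 0.757) and below all 20 endothelial genes (median 2140).

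Nintedanib alone lowered 3 spindle genes in the mouse reads relative to vehicle. Prc1, which bundles the microtubules of the central spindle, Kif20a, a kinesin of cytokinesis, and Kif23, the motor of the centralspindlin complex, were the members called, 3 of 33 tested, against 0.144% of all mouse genes called lower. No member was called higher, against 0.00845% of all genes. At an unadjusted p under 0.05, 22 of 33 were lower, against 3.59% of all genes. The change was negative in 31 of 33, against 48.1% of all genes, with a median of -0.94 for the members and 0.02 for all 11831 genes tested. edgeR and limma-voom also called 3 members, for which the share of all genes is not given here. DESeq2 called 6 (Ccnb1, Kif20a, Kif23, Kif2c, Prc1 and Tpx2), against 0.623% of all genes called lower in DESeq2.

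Prc1 had 25.1, 28.1 and 19.5 normalized counts in nintedanib responders and 23.5 and 37.5 in non-responders, against 75.8, 67.9, 94.2 and 87.5 in vehicle libraries. All 5 nintedanib libraries lay below all 4 vehicle libraries, with means of 26.7 ± 6.77 (SD, n = 5) and 81.4 ± 11.7 (SD, n = 4). The log2 fold change was -1.59 ± 0.25 (SE; limma-trend, adjusted p = 0.0113). Kif20a had 13.5, 15.5 and 13.3 in responders and 19.8 and 16.9 in non-responders, against 53.8, 47.6, 52.8 and 39.7 in vehicle libraries. The groups did not overlap here either, at 15.8 ± 2.69 (SD, n = 5) against 48.5 ± 6.45 (SD, n = 4), and the change was -1.56 ± 0.25 (SE; limma-trend, adjusted p = 0.0113). These values rested on 14 to 27 mouse reads of Kif20a per nintedanib library and 23 to 87 per vehicle library. Kif23 had 16.9, 14.3 and 13.3 in responders and 50.7 and 24.2 in non-responders, against 44.1, 59.7, 78.1 and 52.9 in vehicle libraries. The responders and non-responder 2 lay below every vehicle library, and non-responder 1 lay inside the vehicle range. The change of Kif23 was -1.41 ± 0.26 (SE; limma-trend, adjusted p = 0.0309).

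The calls of Prc1 and Kif20a were lost without vehicle library 1 (adjusted p = 0.0508 and 0.0837, limma-trend), and that of Kif20a also without vehicle library 2 (0.0562) or responder 1 (0.0501). Kif23 lost its call in 8 of the 17 fits that left out 1 library, with no expression filter (adjusted p = 0.0803, limma-trend) and with the replicate number as a block (0.119). Without the 4 libraries rich in ribosomal reads none of the 3 was called (adjusted p = 0.0879 for Prc1, 0.0895 for Kif20a and 0.228 for Kif23), with changes of -1.52, -1.52 and -1.27. Across all genes 2 calls were left in that fit.

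The other spindle genes pointed the same way without passing the test. The group of 8 spindle and cytokinesis genes, with the called Prc1, Kif20a and Kif23 among them, had a median of -1.25 and 8 negative values. Those not called ran from -1.34 for Tpx2 to -0.91 for Nusap1. Kif2c, a kinesin that depolymerizes microtubules, had 29.8, 25.2 and 39.8 in responders and 54.4 and 60.5 in non-responders, against 75.8, 93.3, 64.3 and 85.7 in vehicle libraries (-0.97 ± 0.25, SE; limma-trend, adjusted p = 0.175). Tpx2, which activates Aurora A on the spindle, had 35.2, 26.4 and 16.4 in responders and 30.9 and 65.3 in non-responders, against 77.2, 87.0, 71.2 and 92.6 in vehicle libraries (-1.34 ± 0.37, SE; limma-trend, adjusted p = 0.236). Nintedanib and vehicle libraries did not overlap in either gene. The same held for the chromokinesin Kif4, for Cenpf and Ndc80 of the kinetochore, and for Prc1 and Kif20a, which made 7 of 33 members, against 1.52% of all genes.

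Among the cyclins and kinases the median was -0.91 and none was called. Ccnb1 had 21.7, 14.3 and 11.7 in responders and 12.4 and 32.7 in non-responders, against 45.5, 32.4, 43.6 and 68.4 in vehicle libraries (-1.36 ± 0.32, SE; limma-trend, adjusted p = 0.121). Non-responder 2 and vehicle library 2 were nearly level. Ccna2, the cyclin of S and G2 phase, had 32.5, 38.4 and 43.7 in responders and 35.9 and 77.4 in non-responders, against 70.3, 72.4, 94.2 and 95.8 in vehicle libraries (-0.91 ± 0.28, SE; limma-trend, adjusted p = 0.322). Here 4 of the 5 nintedanib libraries lay below the vehicle range. Cdk1, the kinase that both cyclins activate, had 76.5, 56.2 and 37.4 in responders and 110.1 and 117 in non-responders, against 77.2, 119, 73.5 and 157 in vehicle libraries (-0.47 ± 0.29, SE; limma-trend, adjusted p = 0.611), and the groups overlapped.

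The checkpoint genes had a median of -1.07. Bub1 and Bub1b, kinases of the spindle checkpoint, had values of -1.14 and -1.05, and Ube2c, the ubiquitin-conjugating enzyme of the anaphase-promoting complex, -1.09, whereas Cdc20, the activator of that complex, had -0.38. The kinetochore genes had a median of -0.91. The widest changes in that group were those of Cenpf at -1.78 ± 0.50 (SE; limma-trend, adjusted p = 0.252) and of the motor Cenpe at -1.52 ± 0.48 (SE; adjusted p = 0.354). Cenpf had 6.77, 12.6 and 3.12 in responders and 12.4 and 24.2 in non-responders, against 27.6, 31.1, 73.5 and 26.9 in vehicle libraries. Every nintedanib library lay below every vehicle library, at 4 to 22 mouse reads per nintedanib library.

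Mki67, which coats mitotic chromosomes and is the usual proliferation marker, varied widely within groups. It had 76.5, 75.7 and 29.6 in responders and 44.5 and 171 in non-responders, against 147, 139.7, 347 and 171 in vehicle libraries (-1.47 ± 0.43, SE; limma-trend, adjusted p = 0.277). Non-responder 2 reached the level of vehicle libraries, and vehicle library 3 stood far above the rest. Top2a, which untangles DNA before chromosomes separate, had 97.5, 303 and 158 in responders and 197 and 219 in non-responders, against 402, 512, 751 and 286 in vehicle libraries (-1.33 ± 0.47, SE; limma-trend, adjusted p = 0.45). Responder 2 overlapped the lowest vehicle library.

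The replication members had the median nearest to 0 of all roles under nintedanib, at -0.15 over the 7, with 5 negative values and none called. Mcm2, a subunit of the replicative helicase, had 77.9, 91.2 and 68.6 in responders and 79.2 and 127 in non-responders, against 93.7, 97.1, 98.7 and 126 in vehicle libraries (-0.25 ± 0.20, SE; limma-trend, adjusted p = 0.646). Pcna, the sliding clamp of DNA polymerase, had 529, 238 and 290.1 in responders and 344 and 449 in non-responders, against 243, 333, 282 and 397 in vehicle libraries (0.20 ± 0.24, SE; limma-trend, adjusted p = 0.739). Both genes overlapped between groups. The difference in response between the replication and the mitotic members was not tested.

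**Figure D2:**
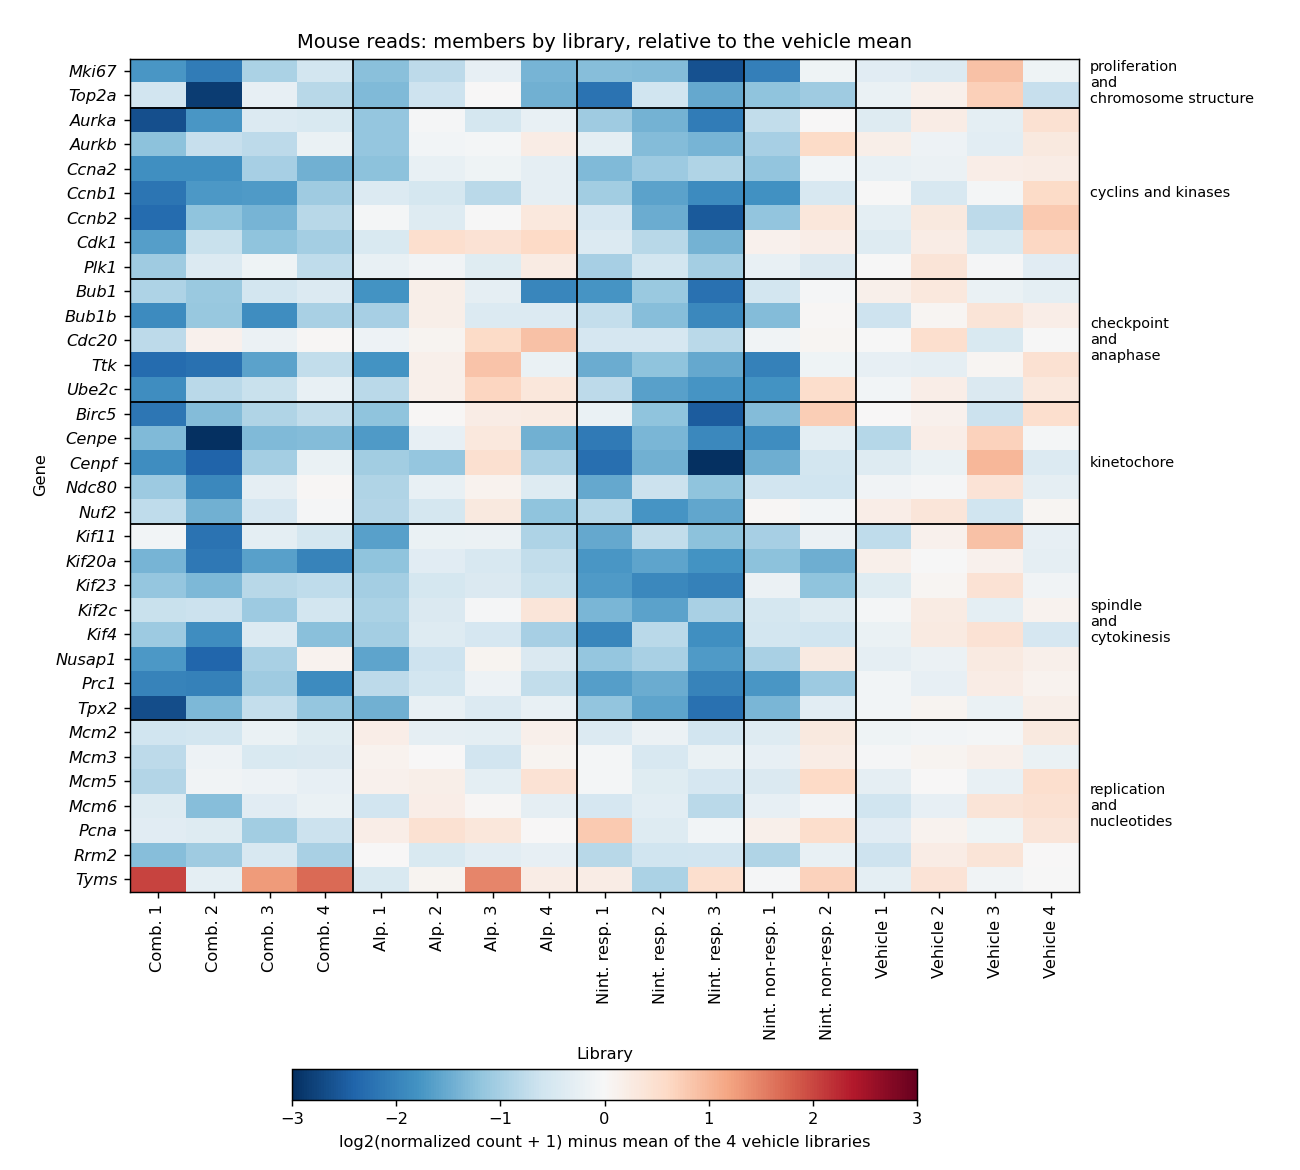
Level of each of the 34 members in each of the 17 libraries, as log2(normalized count + 1) minus the mean of the 4 vehicle libraries (blue lower, red higher), with members grouped by role and vertical lines between groups. Blue dominates the mitotic members in combination and nintedanib libraries, while the replication members are paler in nintedanib libraries. Rrm2 and Pcna are lower on average in combination libraries (-0.95 and -0.60), and Tyms is red in 3 of 4 of them.

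The combination with alpelisib lowered 4 members relative to vehicle. Kif20a, Prc1, Ccna2 and Ccnb1 were called, 4 of 33, against 0.38% of all mouse genes, and none was called higher, against 0.397%. At an unadjusted p under 0.05, 23 of 33 were lower, against 6.87%, and 1 (Tyms) was higher, against 9.67%. In all, 32 of 33 were negative, against 51.8%. In 16 members the combination libraries lay wholly below the vehicle libraries, against 4.74% of all genes. The members' median was -1.02 and that of all genes -0.02. edgeR and limma-voom called 4 members, for which the share of all genes is not given here. DESeq2 called 12, against 1.59% of all genes called lower in DESeq2. The vehicle libraries are the ones used for nintedanib alone, so the comparisons are not independent.

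Kif20a had 17.7, 10.1, 14.8 and 11.2 normalized counts in combination libraries, against 39.7 to 53.8 in vehicle libraries (-1.80 ± 0.27, SE; limma-trend, adjusted p = 0.00739). Prc1 had 19.5, 19.1, 38.1 and 21.2, against 67.9 to 94.2 in vehicle libraries (-1.74 ± 0.26, SE; limma-trend, adjusted p = 0.00739). Combination library 3 stood above the other three and still below every vehicle library. Ccnb1 had 9.29, 13.1, 13.5 and 21.2, against 32.4 to 68.4 in vehicle libraries (-1.67 ± 0.34, SE; limma-trend, adjusted p = 0.0306). Ccna2 had 22.3, 22.1, 40.6 and 29.9, against 70.3 to 95.8 in vehicle libraries (-1.53 ± 0.30, SE; limma-trend, adjusted p = 0.0237). None of the 4 genes overlapped between groups.

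Kif20a and Prc1 kept their calls in each of the 17 fits that left out 1 library, while Ccnb1 lost its call in 6 and Ccna2 in 3 of them. Ccnb1 also lost it with no expression filter (adjusted p = 0.0671, limma-trend). Without the 4 libraries rich in ribosomal reads, 2 of which are combination libraries, no member was called and 22 genes were called in all. Kif20a then had -1.85 (limma-trend, adjusted p = 0.0512) and Prc1 -1.47 (0.104), with 0.135 for Ccnb1 and 0.183 for Ccna2.

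Of the members not called, Cdk1 had 31.6, 63.4, 43.1 and 49.9 in combination libraries, all below the vehicle range of 73.5 to 157 (-1.14 ± 0.31, SE; limma-trend, adjusted p = 0.0803). Kif23 had 25.1, 22.1, 32.0 and 33.7, below the 44.1 to 78.1 of vehicle libraries (-1.02 ± 0.27, SE; limma-trend, adjusted p = 0.0753). Tpx2, with -1.47 (adjusted p = 0.0742), Bub1b, with -1.47 (0.071), and Rrm2, the regulated subunit of ribonucleotide reductase, with -0.95 (0.0731), came as close. Mki67 had 54.8, 43.2, 96.0 and 127, against 139.7 to 347 in vehicle libraries (-1.34 ± 0.45, SE; limma-trend, adjusted p = 0.141). The groups did not overlap, but the vehicle libraries spread widely. Top2a had 308, 63.4, 389 and 256, against 286 to 751 in vehicle libraries, and overlapped (-1.12 ± 0.49, SE; limma-trend, adjusted p = 0.257). Kif2c had 49.2, 50.3, 36.9 and 53.6, against 64.3 to 93.3 in vehicle libraries, without overlap (-0.74 ± 0.26, SE; limma-trend, adjusted p = 0.16).

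The replication members had a median of -0.46 in the combination. Mcm2 had 67.8, 70.4, 89.8 and 79.8, against 93.7 to 126 in vehicle libraries (-0.43 ± 0.21, SE; limma-trend, adjusted p = 0.316), and Pcna had 243, 237, 149 and 198, against 243 to 397 (-0.60 ± 0.25, SE; limma-trend, adjusted p = 0.236). Mcm2 did not overlap between the groups, and combination library 1 was level with the lowest vehicle value of Pcna. Tyms was the only member with a positive value in this comparison. It had 473, 93.5, 283 and 375 normalized counts in combination libraries, against 93.7, 155, 108 and 114 in vehicle libraries (1.17 ± 0.46, SE; limma-trend, adjusted p = 0.207). In 3 of the 4 combination libraries it stood above every vehicle library, and in combination library 2 just below the lowest. Without the 4 libraries rich in ribosomal reads, which include combination libraries 1 and 4, the change was 0.46 ± 0.49 (SE; limma-trend, adjusted p = 0.798). The human TYMS had 434, 303, 319 and 307 in combination libraries, against 411, 514, 323 and 438 in vehicle libraries (-0.30 ± 0.22, SE; limma-trend, adjusted p = 0.471). The high mouse values of combination libraries 1, 3 and 4 were thus not matched in the human reads of the same libraries.

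**Figure D3:**
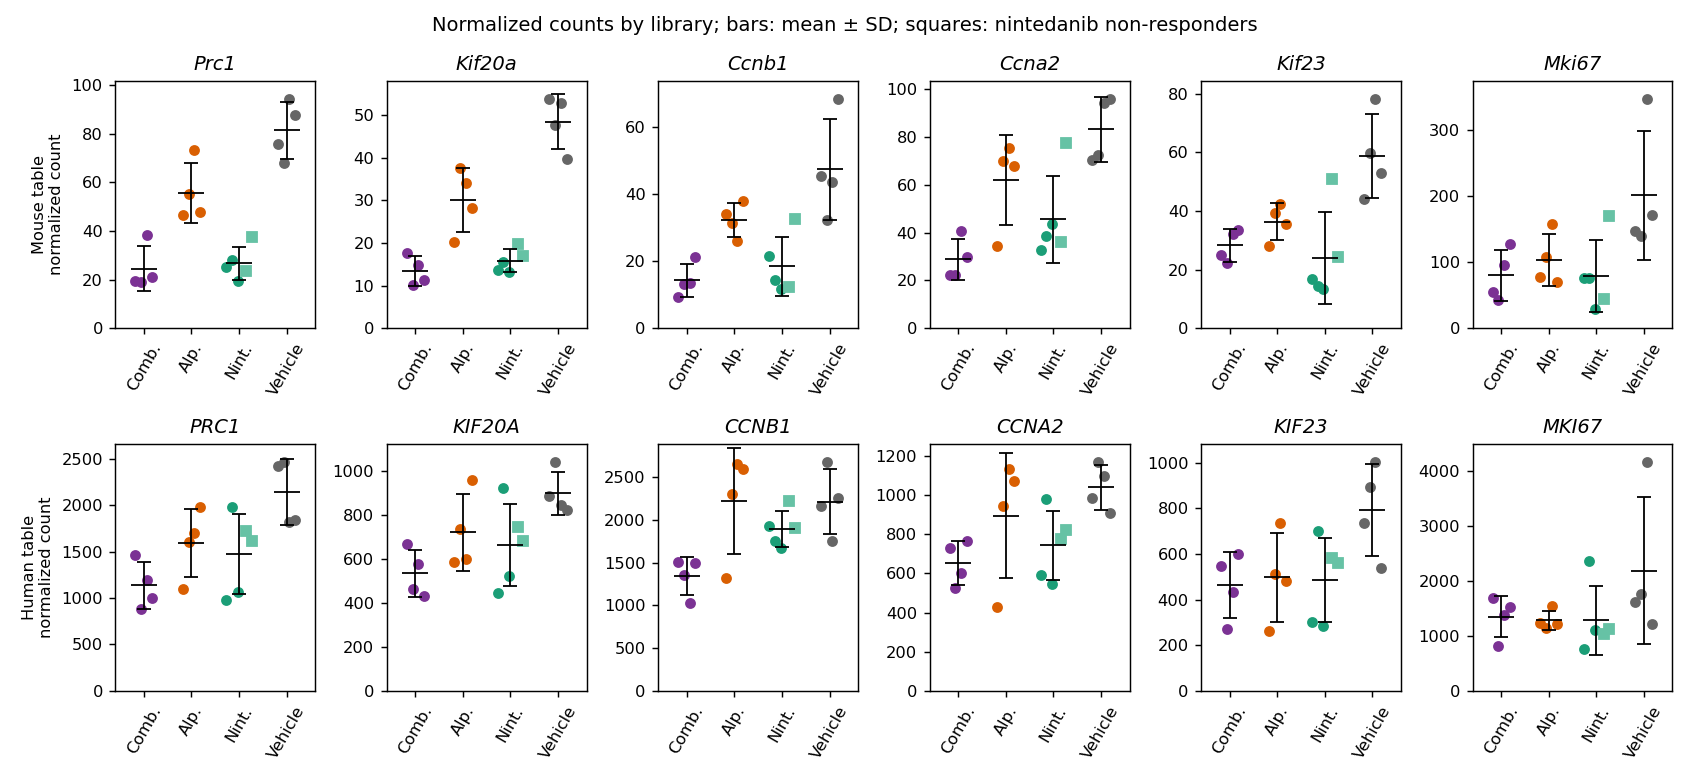
Normalized counts of the 5 members called in any comparison and of Mki67, in the mouse table (top) and the human table (bottom), by library; horizontal bars are means ± SD (combination n = 4, alpelisib n = 4, nintedanib n = 5 with non-responders as squares, vehicle n = 4). For mouse Prc1 and Kif20a, all combination and nintedanib libraries lie below all vehicle libraries, whereas human PRC1 and KIF20A overlap between nintedanib and vehicle. Human PRC1 and KIF20A were lower in the combination (log2 fold changes of -0.92 and -0.77 against vehicle) than in nintedanib (-0.58 and -0.48). Neither was called by limma-trend in either arm.

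Alpelisib alone gave no call among the members, and none among all 11831 mouse genes (0% in either direction) in limma-trend. edgeR and limma-voom called no member either, nor did DESeq2 among the 8 to which it gave an adjusted p, where 0.446% of all genes were called lower. At an unadjusted p under 0.05, 4 of 33 members were lower (Kif20a, Kif23, Kif4 and Prc1), against 4.52% of all genes, and none was higher, against 6.03%. The median was -0.41, with 27 negative values, against 49.1% of all genes.

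Kif20a had 20.2, 37.6, 34.2 and 28.3 in alpelisib libraries, against 39.7 to 53.8 in vehicle libraries (-0.70 ± 0.27, SE; limma-trend, adjusted p = 0.408). Prc1 had 46.7, 55.1, 73.1 and 47.7, against 67.9 to 94.2 (-0.55 ± 0.26, SE; limma-trend, adjusted p = 0.472). Kif23 had 28.0, 39.3, 42.5 and 35.6, against 44.1 to 78.1 (-0.66 ± 0.27, SE; limma-trend, adjusted p = 0.427). Alpelisib and vehicle libraries did not overlap in Kif20a, Kif23 and Tpx2, 3 of 33 members, against 3.03% of all genes. Cdk1 had 73.1, 145, 138 and 154, against 73.5 to 157 in vehicle libraries (0.27 ± 0.31, SE; limma-trend, adjusted p = 0.713), and overlapped almost fully. Mki67 had 77.8, 108, 158 and 70.4, against 139.7 to 347 (-0.92 ± 0.45, SE; limma-trend, adjusted p = 0.476). Mcm2 had 118, 85.7, 83.7 and 115 (-0.05 ± 0.21, SE; limma-trend, adjusted p = 0.924) and Pcna 352, 421, 394 and 309.9 (0.25 ± 0.25, SE; limma-trend, adjusted p = 0.683). Alpelisib library 1 was the lowest of its group in Kif20a, Kif23, Prc1, Ccna2 and Cdk1.

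Pooled over the arms with and without nintedanib, 5 members were lower in nintedanib-exposed libraries (combination and nintedanib, n = 9) than in unexposed libraries (alpelisib and vehicle, n = 8). They were Prc1, at -1.39 ± 0.18 (SE; limma-trend, adjusted p = 0.00119), Kif20a, at -1.33 ± 0.18 (0.00142), Ccnb1, at -1.27 ± 0.23 (0.0133), Ccna2, at -0.99 ± 0.20 (0.0277), and Kif23, at -0.89 ± 0.19 (0.0303). This made 5 of 33, against 0.499% of all genes called lower. At an unadjusted p under 0.05, 25 of 33 were lower, against 4.09%. In Kif20a and Prc1 all 9 exposed libraries lay below all 8 unexposed libraries, as they did in 0.169% of all genes. For Kif20a the highest exposed library had 19.8 and the lowest unexposed library 20.2 normalized counts.

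Next came Cdk1, at -0.94 ± 0.21 (SE; limma-trend, adjusted p = 0.052), Tpx2, at -1.12 ± 0.27 (0.0664), Bub1b, at -1.05 ± 0.26 (0.0766), and Kif2c, at -0.72 ± 0.18 (0.0808). The members' median was -0.79 and that of all genes 0.00. edgeR called 6 members, against 0.735% of all genes called in either direction, and limma-voom 7, against 0.676%. DESeq2 called 14, against 1.49% of all genes called lower. The 26 mitotic members tested had a median of -0.94 and the 7 replication members of -0.31. Prc1, Kif20a and Ccnb1 kept their calls in each fit that left out 1 library, Ccna2 lost its call in 9 and Kif23 in 12 of the 17. With no expression filter the adjusted p was 0.0591 for Ccna2 and 0.0788 for Kif23 (limma-trend), and with the replicate block it was 0.0774 for Kif23. Without the 4 libraries rich in ribosomal reads no member was called, with adjusted p of 0.0894 for Kif20a (-1.32) and 0.0913 for Prc1 (-1.19) in limma-trend, and 1 gene was called in all.

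No member was called between the combination and either drug alone. Against alpelisib alone, 31 of 33 were negative (48.4% of all genes) with a median of -0.54, and 12 were lower at an unadjusted p under 0.05, against 3.65%. Of all genes 0.00845% were called lower there in limma-trend. Prc1 had the smallest adjusted p with Cdk1 (0.311 each), at -1.19 ± 0.26 and -1.41 ± 0.31 (SE). edgeR and limma-voom called no member, whereas DESeq2 called 2, Cdk1 and Prc1, against 0.192% of all genes. In 7 members (Ccnb1, Ccnb2, Cdk1, Kif20a, Pcna, Prc1 and Rrm2) the combination libraries lay wholly below the alpelisib libraries, against 2.14% of all genes. Against nintedanib alone, 20 of 33 were negative (49.4% of all genes), the median was -0.15, and 3 members were lower at an unadjusted p under 0.05 (Ccna2, Cdk1 and Pcna), against 4.19%. Tyms was higher at that threshold (1.09 ± 0.44, SE; limma-trend, adjusted p = 0.648), against 2.82% of all genes. The members' median was 0.09 without non-responder 2. No gene of either direction was called (0%), and the other tools called no member. Kif20a differed by -0.24 ± 0.25 and Prc1 by -0.15 ± 0.25 (SE) between combination and nintedanib.

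Nor was any member called in the departure from additivity, which is the combination plus vehicle minus both single drugs. Its median was 0.24, 2 members had an unadjusted p under 0.05 in the negative direction, against 2.72% of all genes, and Kif23 did in the positive direction (1.05 ± 0.37, SE), against 2.1%. None of limma-trend, edgeR, limma-voom and DESeq2 called a member there. The alpelisib arms (combination and alpelisib) against the other arms gave a median of -0.28. There 2 of 33 were lower at an unadjusted p under 0.05 (Ccna2 and Kif20a), against 5.93%, and Tyms was higher (0.71 ± 0.32, SE), against 6.91%. No member was called by any of the 4 tools, against 0.0507% of all genes in limma-trend.

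Within the nintedanib group, every one of the 33 members had a negative value in responders against non-responders, against 54% of all genes, with a median of -0.64. None was called by limma-trend, edgeR, limma-voom or DESeq2, as no gene was in limma-trend (0%). At an unadjusted p under 0.05, 6 members were lower (Bub1, Cdk1, Kif23, Kif2c, Kif4 and Nuf2), against 0.769% of all genes. Kif23 had the values 16.9, 14.3 and 13.3 in responders and 50.7 and 24.2 in non-responders (-1.19 ± 0.35, SE), and the groups did not overlap. Cdk1 had 76.5, 56.2 and 37.4 in responders and 110.1 and 117 in non-responders (-1.05 ± 0.40, SE), also without overlap. In 12 members all responders lay below both non-responders, against 8.01% of all genes. The median was -0.23 without non-responder 2 and -0.99 without non-responder 1. With 3 and 2 libraries, and with the conflict over which are responders, these values are descriptive.

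In the human reads limma-trend called no member in any of the 9 comparisons. Against vehicle, the median of the human counterparts was -0.53 in the combination, -0.21 in alpelisib and -0.45 in nintedanib libraries, and -0.36 in exposed against unexposed libraries. For all human genes 0.0413% were called lower in the combination and 0% in the other 8 comparisons. At an unadjusted p under 0.05, 13 of 34 counterparts were lower in the combination (6.89% of all genes), 3 in alpelisib (7.17%), 11 in nintedanib (2.01%) and 12 in exposed libraries (2.26%). edgeR and limma-voom called none, while DESeq2 called 4 in the combination (AURKA, BUB1B, CCNB1 and PRC1), against 0.936% of all genes, and none elsewhere, having given an adjusted p to only 3 of them in nintedanib against vehicle. The value was negative in 30 of 34 in the combination (52.8% of all genes), 24 in alpelisib (48%), 29 in nintedanib (50.2%) and 33 in exposed libraries (52.3%).

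The mouse value was the lower of the pair in most members, in 31 of 33 for the combination, 23 for alpelisib, 31 for nintedanib and 32 for exposed against unexposed libraries. The same share over all gene pairs was not computed, so these counts do not show a trait particular to the members. For the mitotic members the medians were -0.94 in mouse and -0.41 in human reads of exposed against unexposed libraries. Prc1 had -1.39 ± 0.18 in mouse and PRC1 -0.53 ± 0.17 in human reads (SE; limma-trend, adjusted p = 0.846 for human). Kif20a had -1.33 ± 0.18 and KIF20A -0.45 ± 0.16 (SE; limma-trend, adjusted p = 0.906 for human). Ccnb1 had -1.27 ± 0.23 and CCNB1 -0.45 ± 0.15 (SE). A smaller change in 1 table than in the other was tested only through the read ratio given next.

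**Figure D4:**
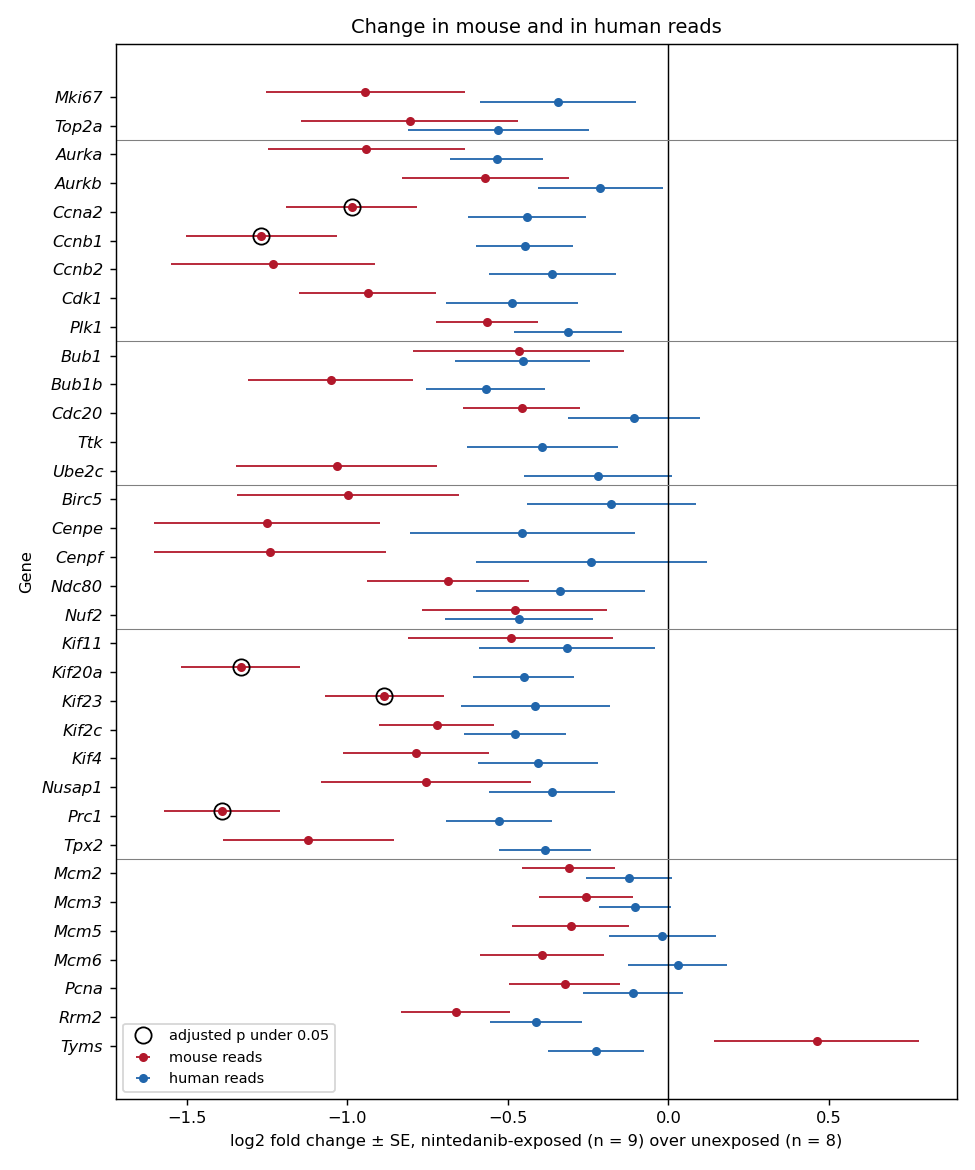
Log2 fold change ± SE of each member in mouse reads (red) and of its human counterpart (blue), nintedanib-exposed (n = 9) over unexposed (n = 8) libraries, by role; circles mark an adjusted p under 0.05 and Ttk has no mouse value. Mouse values lie left of human values in 32 of 33 members, Tyms being the exception. The same share over all gene pairs was not computed.

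The ratio of mouse to human reads within a library does not use the scaling of either table. It was tested as log2((mouse reads + 1)/(human reads + 1)), centred on the library median over all pairs. Centring takes out the general level of mouse over human reads in each library. Kif20a was the only member called, at -0.86 ± 0.16 (SE; limma-trend, adjusted p = 0.0283) in exposed against unexposed libraries, 1 member against 0.242% of all pairs. Kif20a had 3.09, 1.74, 1.73 and 2.74 mouse reads per 100 human reads in combination libraries, 4.42, 2.48 and 2.25 in responders and 2.33 and 3.38 in non-responders. Among unexposed libraries it had 2.69, 4.05, 5.30 and 2.90 under alpelisib and 6.01, 4.14, 5.46 and 7.07 under vehicle. The exposed libraries averaged 2.69 ± 0.85 (SD, n = 9) and the unexposed 4.7 ± 1.5 (SD, n = 8), and the ranges overlapped. The call was lost without any 1 of 8 libraries, without the 4 libraries rich in ribosomal reads, and when the ratio was not centred.

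Against vehicle no ratio of a member was called in limma-trend. In the combination against vehicle, Kif20a had -1.003 ± 0.225 (SE; limma-trend, adjusted p = 0.0511), where 0.42% of all pairs were called lower, and 11 members were lower at an unadjusted p under 0.05, against 7.85%. Tyms was higher at that threshold, at 1.496 ± 0.479 (SE; limma-trend, adjusted p = 0.163), against 6.5% of pairs, and had 0.98 ± 0.52 (adjusted p = 0.426) without the 4 libraries rich in ribosomal reads. In nintedanib against vehicle, Kif20a had -1.06 ± 0.21 (adjusted p = 0.127) and Prc1 -0.99 ± 0.29 (0.36), with 0% of all pairs called lower, and 9 members were lower at an unadjusted p under 0.05, against 3.5%. In alpelisib against vehicle no member was, against 5.83%, and again 0% of pairs were called. In exposed against unexposed libraries 13 were lower, against 4.58%, and Tyms was higher (0.71 ± 0.33, SE), against 4.82%. The members' median ratio was -0.51 in the combination, -0.19 in alpelisib, -0.37 in nintedanib and -0.38 in exposed against unexposed libraries, and that of all pairs was 0.01 in the first and -0.01 in the last.

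Some single libraries parted the tables, while others ranked alike in both. Responder 2 had human KIF20A at 920.1, PRC1 at 1975 and KIF23 at 702, each inside the range of vehicle libraries (822 to 1039, 1819 to 2463 and 538 to 1003). Its mouse values were 15.5 for Kif20a, 28.1 for Prc1 and 14.3 for Kif23, each below every vehicle library. Over all members, the mean log2 value of responder 2 ranked 4th lowest of 17 in mouse and 13th in human reads. Vehicle library 4 ranked 17th in mouse and 8th in human reads. Responder 3 ranked lowest in both tables, and alpelisib library 1 ranked 7th in mouse and 2nd in human reads. Combination libraries 1 to 4 ranked 3rd, 2nd, 8th and 9th in mouse and 6th, 4th, 5th and 7th in human reads. Responder 1 ranked 5th and 3rd, non-responder 1 6th and 9th, and non-responder 2 13th and 10th. Alpelisib libraries 2 to 4 ranked 12th, 14th and 10th in mouse and 11th, 16th and 15th in human reads. Vehicle libraries 1 to 3 ranked 11th, 15th and 16th in mouse and 14th, 17th and 12th in human reads. Single genes are given for responder 2 alone, the library whose mouse rank lay furthest below its human rank. The spread between libraries of a group was 0.314 on this log2 scale in mouse reads (pooled SD).

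Other genes of the cycle were listed by name, also with earlier results of these data known. Of 51 other mitotic genes 38 were tested, and 37 had a negative value in the combination against vehicle, with a median of -0.77. Ckap2l, a spindle-associated protein, was called there (-1.50 ± 0.34, SE; limma-trend, adjusted p = 0.0451), against 0.38% of all genes called lower. In nintedanib against vehicle 37 of 38 were negative with a median of -0.83, 21 had an unadjusted p under 0.05 and none was called. Of all genes 3.59% were lower at that threshold and 0.144% were called lower. In exposed against unexposed libraries 2 were called, against 0.499% of all genes called lower. They were Ckap2l (-1.26, adjusted p = 0.0133, limma-trend) and Racgap1, the partner of Kif23 in centralspindlin (-0.93, 0.0277). Neither gene was called without the 4 libraries rich in ribosomal reads, where Ckap2l had -1.29 in the combination (adjusted p = 0.211, limma-trend) and -1.14 in exposed libraries (0.186), and Racgap1 -0.99 (0.206). Of 41 other replication genes 37 were tested, and none was called in nintedanib against vehicle, with a median of -0.12 and 24 negative values. The regulators had a median of -0.20 there, with 15 of 23 negative. Foxm1 had -0.69 ± 0.24 (SE; limma-trend, adjusted p = 0.432), and -0.76 (0.0505) in exposed against unexposed libraries.

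Endothelial genes were lower in the same libraries. All 20 had a negative value in the combination, with a median of -1.05 and 4 called (Cdh5, Flt4, Mmrn2 and Pecam1), and in nintedanib, with a median of -0.86 and 2 called (Flt4 at -2.09 and Mmrn2 at -1.55, limma-trend, adjusted p = 0.0113 and 0.0466). Of all mouse genes 51.8% and 48.1% were negative in these arms, and 0.38% and 0.144% were called lower. In alpelisib 14 of 20 were negative, the median was -0.23 and none was called. Without the 4 libraries rich in ribosomal reads no endothelial gene was called, and the medians were -0.76 in the combination (19 of 20 negative) and -0.83 in nintedanib (20 of 20). Their summed level ranged from 2616 to 3558 normalized counts in combination, 3580 to 6216 in alpelisib, 2365 to 4239 in nintedanib and 4606 to 8267 in vehicle libraries, and no endothelial gene was at 0 in all libraries. The 27 mitotic members summed to 779 to 1336 in combination, 1079 to 2098 in alpelisib, 677 to 1720 in nintedanib and 1844 to 2583 in vehicle libraries. The part of a smaller endothelial share in the lower mitotic values was not tested.

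The markers of the other host cells gave no call in any of the 3 arms against vehicle. Lymphoid genes summed to 549 to 861 normalized counts in combination, 351 to 842 in alpelisib, 699 to 2155 in nintedanib and 950 to 1842 in vehicle libraries, with medians of -0.90 (10 of 11 tested negative), -0.58 (10 of 11) and 0.56 (2 of 11) against vehicle. In the combination and alpelisib every library thus lay below every vehicle library. Macrophage genes summed to 25817 to 38665 in combination, 20511 to 27597 in alpelisib, 20824 to 43695 in nintedanib and 23006 to 32733 in vehicle libraries, with medians of 0.12, -0.33 and 0.36. Fibroblast and matrix genes summed to 85631 to 152766 in combination, 46203 to 138143 in alpelisib, 64087 to 163434 in nintedanib and 58433 to 152251 in vehicle libraries, with medians of 0.47, 0.14 and 0.22. No gene of these lists was at 0 in every library of a group. Their part in the members' values was not tested.

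Tumour epithelium genes in the mouse table had no common direction across the arms. Of 26 tested, 15 were positive in the combination (median 0.11, 3 called higher), 19 in alpelisib (median 0.34, none called) and 8 in nintedanib (median -0.31, none called). Of all mouse genes 0.397%, 0% and 0.00845% were called higher in these arms. Their summed mouse level ranged from 84395 to 254573 in combination, 97111 to 171524 in alpelisib, 64937 to 96550 in nintedanib and 39706 to 69742 in vehicle libraries, so that the combination and alpelisib libraries all lay above the vehicle libraries. A few keratins made up most of that sum, Krt14 alone averaging 98775 in combination, 71979 in alpelisib, 42322 in nintedanib and 28271 in vehicle libraries. Epcam, an adhesion molecule of epithelium, averaged 28.0, 87.8, 47.8 and 52.2 in these groups. Krt14, Krt17 and Krt19 were called higher in the combination (1.69, 1.76 and 1.57; limma-trend, adjusted p = 0.0368, 0.0126 and 0.0242), as they were without the 4 libraries rich in ribosomal reads (2.26, 2.23 and 2.10; adjusted p = 0.0279, 0.016 and 0.0191). The 7 replication members summed to 953 ± 145 in combination, 1128 ± 76.3 in alpelisib, 1020.3 ± 227 in nintedanib and 1068 ± 160.5 in vehicle libraries (SD, n = 4, 4, 5 and 4), with overlapping ranges.

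**Figure D5:**
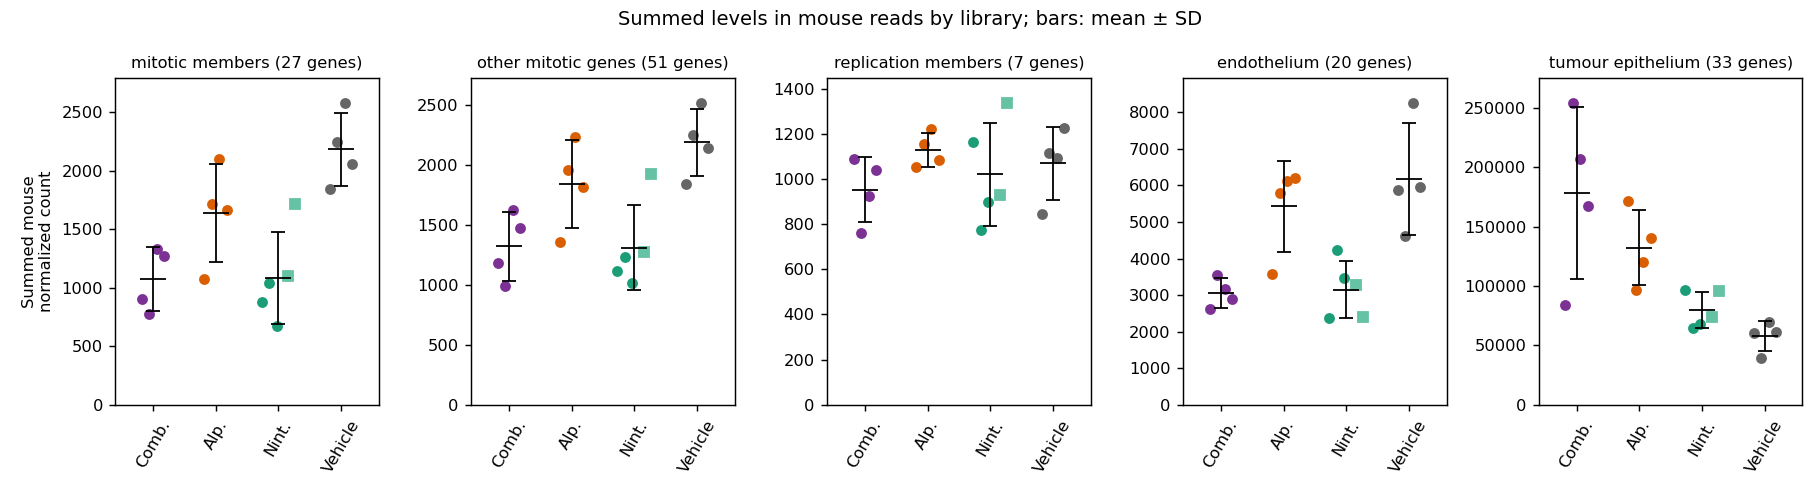
Summed normalized counts of 5 gene lists in the mouse table by library, with means ± SD (combination n = 4, alpelisib n = 4, nintedanib n = 5 with non-responders as squares, vehicle n = 4). Mitotic members and endothelial genes are lowest in combination and nintedanib libraries, the replication members overlap between groups, and the tumour epithelium sum, mostly keratins, is lowest in vehicle libraries.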

How the data were processed

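RNA of 17 xenografts was sequenced. TruSeq RNA v2 libraries of polyA RNA were read as 75-bp paired ends on a NextSeq500, per the labels' protocols. Per the submitters' processing notes, Bowtie, TopHat and DESeq2 were used with hg19 and mm10, and per the series description reads were mapped to the human and the mouse genome separately. For the counter, the annotation and strandedness the sources used here give nothing.

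The deposited values are a normalized count signal per gene and library, which the authors made by dividing reads by a size factor. Whole reads were recovered from every column (100% of values within 0.01 of a whole number), and DESeq2 size factors computed from them differed from the deposited scaling by at most 1.71e-08% in mouse and 1.91e-08% in human.

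Genes averaging at least 10 were fitted with limma-trend 3.58.1 (R 4.3.3) on log2(value + 1) over all 17 libraries. Each group had 1 mean, with nintedanib responders and non-responders as separate groups. Contrasts with nintedanib weighted its 5 libraries equally. The filter left 11831 mouse and 14533 human genes, and 9 contrasts were tested. edgeR 4.0.16, limma-voom and DESeq2 1.42.0 on the recovered reads were alternatives. The members and lists were chosen with earlier results of these data known. Values per library are given for Mki67, Top2a, Kif20a, Ccnb1, Cdk1, Mcm2 and Pcna, for members called in any contrast, and for the 6 with the smallest p in nintedanib against vehicle and in exposed against unexposed libraries. Cenpf and Tyms were added after their values were seen. Leaving out the 4 libraries rich in ribosomal reads for Tyms and the other gene lists was also added after seeing the data. Replicate numbers did not pair the libraries. The scripts were tested on simulated data. No pair of libraries in a group was a copy (chi-square per gene at least 13.46 in mouse and 17.46 in human reads). No sequences are shown.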

Additional observations from a re-analysis of the deposited data

Results flagged for a closer look

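Of the 48 sets of values checked (12 members with values per library in 4 groups), 4 held a library far from the others of its group, where chance gives about 1 in 20. Mki67 had 347 mouse normalized counts in vehicle library 3, against 139.7 to 171 in the other vehicle libraries. Human MKI67 was also highest in that library, at 4159. Mcm2 had 126 in vehicle library 4, against 93.7 to 98.7 in the others. Prc1 had 38.1 in combination library 3, against 19.1 to 21.2 in the others. Ccna2 had 77.4 in nintedanib non-responder 2, against 32.5 to 43.7 in the other nintedanib libraries.

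The mouse to human read ratio of Kif20a was lower in nintedanib-exposed than in unexposed libraries, with a log2 difference of -0.86 (limma-trend, adjusted p = 0.0283). This ratio was the only test of a difference between its mouse and human changes, and the call was not stable. It was lost uncentred, at a pseudocount of 5, with the replicate block and without the 4 libraries rich in ribosomal reads. Leaving out certain single libraries, such as vehicle library 1, also removed it. Against vehicle its ratio was not called in nintedanib or the combination (adjusted p = 0.127 and 0.0511, limma-trend).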

How the results depend on the processing

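Counts and medians kept their direction and size in 326 of 351 settings, many of them in comparisons without a call. Mouse counts of called members did so in 8 of 11 settings for nintedanib, 7 of 11 for the combination and 6 of 11 for exposed against unexposed libraries. The ratio count of exposed against unexposed libraries did so in 1 of 6. Of 996 settings for single members 910 were the same, 60 weaker and 26 stronger, and none reversed. Calls among all genes stand in brackets. Nintedanib against vehicle called 0 members at a mean of at least 50 (7), 6 with DESeq2 (93) and 0 without the 4 ribosomal-rich libraries (2). The combination called 13 with scaling to total reads without Rn45s and Lars2 (307), 1 at a mean of at least 50 (60), 12 with DESeq2 (478) and 0 without those libraries (22). That scaling shifted the median of all genes by -0.304 there, and total reads below stand for the same setting. Exposed against unexposed called 10 with total reads (98), 3 with no filter (57), 1 at a mean of at least 50 (42), 14 with DESeq2 (256) and 0 without those libraries (1). DESeq2 called 2 in the combination against alpelisib (21). Human combination counts were 1 with TMM (55), 3 with total reads (111) and 4 with DESeq2 (496). For the ratio, the combination gave 1 at a pseudocount of 0.5 (61), and exposed against unexposed gave 0 uncentred (5), at a pseudocount of 5 (33), at a mean of at least 50 (15), with the replicate block (3) and without those libraries (0). At a mean of at least 50 the medians were -0.55 for nintedanib, -0.67 for the combination and -0.10 for additivity. A mean of at least 50 leaves 16 members to test, among the called ones only Ccna2, so the counts under it follow from the filter. The cause of the other shifts was not tested.

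Leaving out 1 library gave 0 to 3 members for nintedanib (0 without vehicle 1, where 4 genes were called in all, and 1 without responder 1 or vehicle 2, with 8 and 9), 2 to 4 for the combination (2 without combination 2, combination 4 or vehicle 4, with 45, 5 and 18) and 0 to 1 for the combination against alpelisib (1 without alpelisib 1, with 13). Exposed against unexposed gave 3 to 10 (3 without combination 1 or 4, alpelisib 2, 3 or 4, responder 1 or 2, or vehicle 4, with 40 to 67 genes in all; 9 without alpelisib 1, with 115; 10 without non-responder 2, with 76). The human combination gave 0 to 1 (1 without combination 1 or responder 3, with 97 and 88). The combination ratio gave 0 to 1 (1 without alpelisib 1, alpelisib 3 or responder 1, with 105, 56 and 75), and the exposed ratio 0 to 1 (0 without combination 1, 2 or 3, alpelisib 2 or 3, or vehicle 1, 3 or 4, with 6 to 19). The median of responders against non-responders ran from -0.99 to -0.23.

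Across groups, libraries with the same number had a correlation over 0.1 in 2 of 12 pairs (mouse) and 3 of 12 (human), against 14 of 36 pairs with different numbers, so the number was not taken as a pairing. With the replicate block, 2 mouse members were called in nintedanib (10 genes in all) and 4 in exposed libraries (61 in all). In the combination 4 were called, where the number among all genes is not given here. The other mouse and human comparisons gave 0. Few reads limit all of this, at 9 to 87 mouse reads of Kif20a per library.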
